A study of Mus musculus with 35 samples.

Results

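The Hox genes of mouse embryonic stem cells were examined for peaks of HA-tagged NELFA. They were taken as every protein-coding RefSeq gene whose symbol is Hox, a cluster letter from a to d and a number, which gave 39 of 21887 protein-coding genes: 11 Hoxa genes on chromosome 6, 10 Hoxb genes on chromosome 11, 9 Hoxc genes on chromosome 15 and 9 Hoxd genes on chromosome 2. NELFA is a subunit of the negative elongation factor. The cells were E14 embryonic stem cells with a doxycycline-inducible transgene for NELFA carrying a Strep-HA tag, and every ChIP-seq library came from cells that had received 0.4 µg/ml doxycycline for 16 h in medium with serum, LIF and 2i. The series holds 4 immunoprecipitated libraries, 3 made with 1 HA antibody and 1 with another, against 3 input libraries, all from 3 replicates. Input was the sole control, no ChIP-seq library of uninduced cells was analysed here, and the labels do not say whether the transgenic line was 1 clone. They are represented by 1 peak list without values per library, so the values below carry no replicate error and the read depth is unknown. A peak list measures no expression, so the stem cell label was not checked against marker genes.

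Hox genes encode homeodomain transcription factors that give cells of the embryo their position along the head-to-tail axis. They stand in clusters in which genes with the same number are paralogues, and the order along the chromosome mirrors the order of expression along the body. In embryonic stem cells the clusters are known as targets of Polycomb repression, with both repressive and activating histone marks at many promoters. NELF binds RNA polymerase II shortly after initiation and takes part in its promoter-proximal pausing.

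The Hoxa cluster carried most of the NELFA peaks found in the Hox clusters. From the first to the last protein-coding gene it spans 105.5 kb and held 14 summits (the position of highest signal in each peak), while Hoxb held 0 in 173.9 kb, Hoxc 1 in 115.7 kb and Hoxd 1 in 96.92 kb. A summit lay within 1 kb of a boundary, the annotated start or end, of 3 of 11 Hoxa genes (27.3%, 95% Wilson interval 9.75 to 56.6%) and of 1 of 28 Hoxb, Hoxc and Hoxd genes (3.57%, 0.633 to 17.7%). The same held for 18.8% of all protein-coding genes, for 43.0% of those on chromosome 6, and for 16.9%, 13.7% and 12.1% of those on chromosomes 11, 15 and 2. The Hoxa share was thus above that of all protein-coding genes but below that of its own chromosome, and the share of the other Hox genes was below that of each of their chromosomes. The Hoxa interval includes both 18.8% and 43.0%, and the interval of the other Hox genes includes the shares of chromosomes 11, 15 and 2. Neighbouring Hox genes can share peaks and are not replicates, so no test was made and the intervals cover counting error only.

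**Figure D1:**
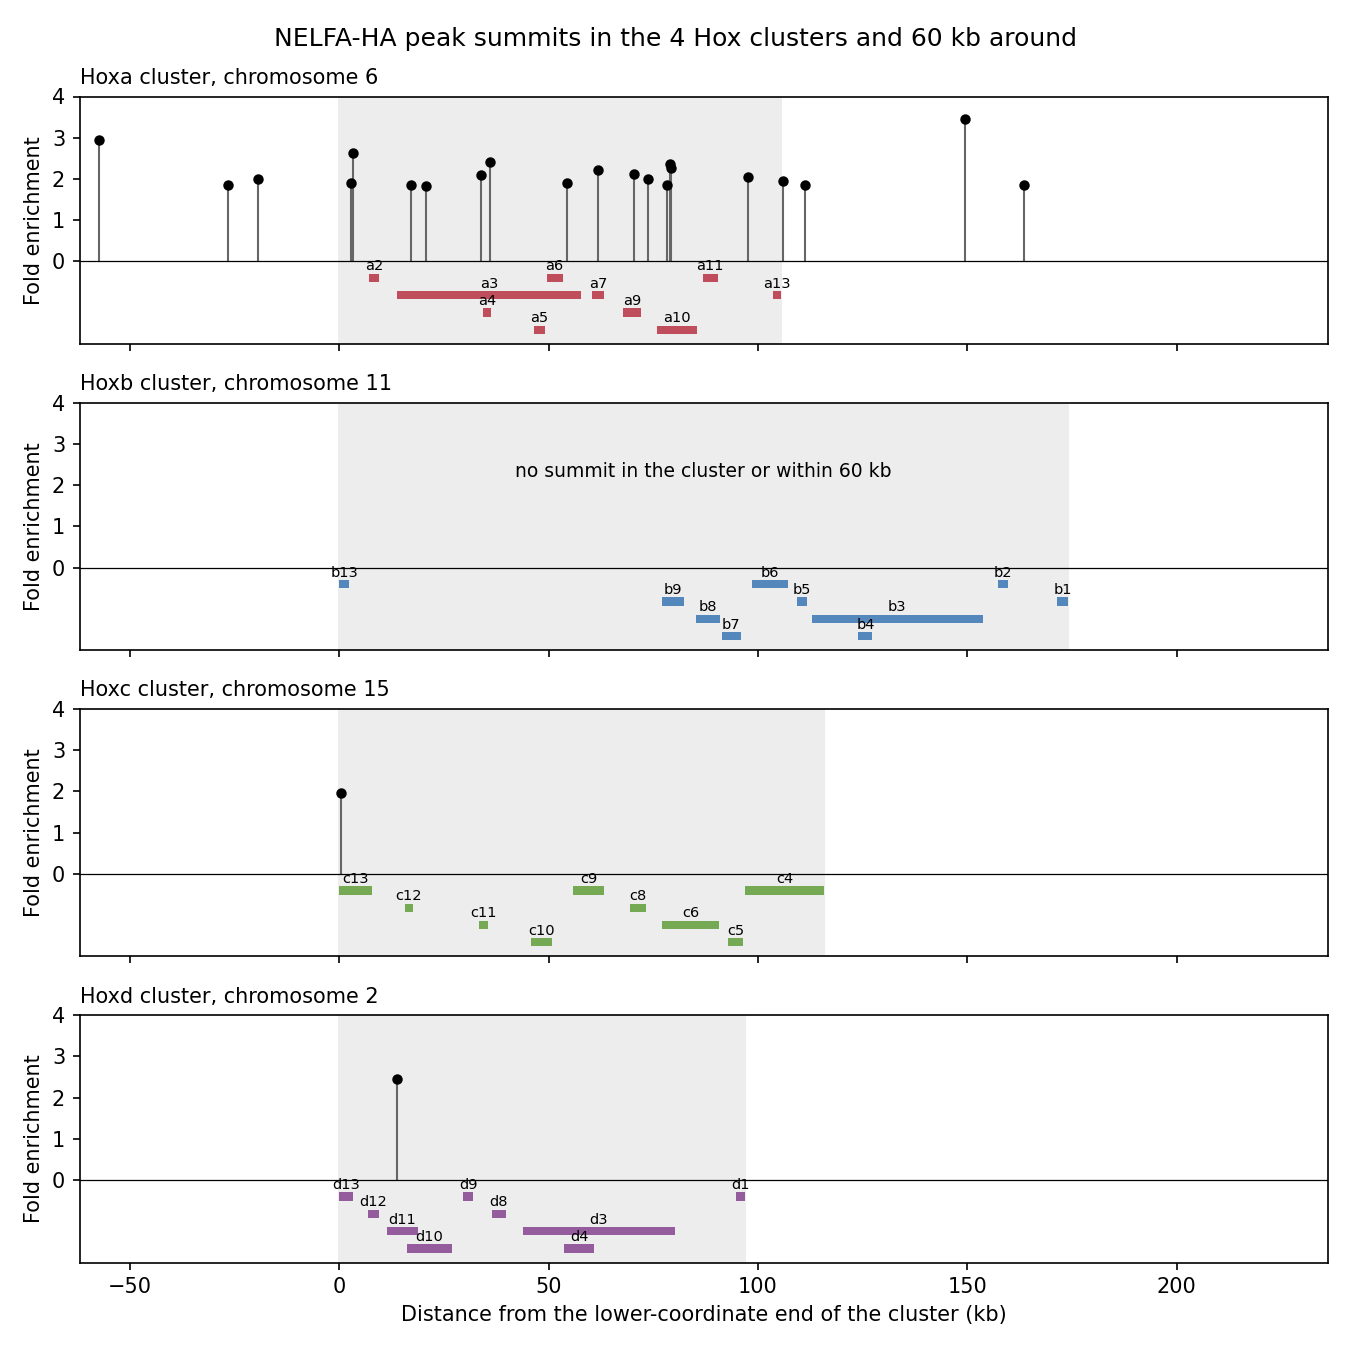
Peak summits (black points, fold enrichment on the vertical axis) in the 4 Hox clusters and the 60 kb on either side, against distance from the lower-coordinate end of each cluster in kb. Coloured bars below 0 are the Hox genes shown, named by cluster letter and number, and the grey band is the cluster. Not every Hoxa gene is drawn, so a summit with no bar below it can still lie inside a Hox gene. Hoxa has 14 summits within its band, Hoxb 0, Hoxc 1 and Hoxd 1.

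Sequences are shown for microRNAs of the miR-196 family and for 4 promoters, some near a peak and some far from any. MicroRNAs of the miR-196 family, which bind Hox transcripts, are encoded in 3 of the clusters. Their loci lie on different chromosomes, with and without a nearby summit. The mature RefSeq sequences (GRCm38.p6) have their seed, bases 2 to 8, in capitals. They come from chr6:52230129-52230150 (minus strand) for miR-196b, and from both chr11:96265187-96265208 and chr15:102973365-102973386 (plus strand) for miR-196a.
mmu-miR-196b-5p: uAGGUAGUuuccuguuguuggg
mmu-miR-196a-5p: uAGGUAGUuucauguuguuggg
The 2 sequences share the seed and differ at 1 of 22 positions, A12C with miR-196a first and positions counted from the 5′ end. Mir196b, in the Hoxa cluster, had a summit at 978 bp from its hairpin, just within the 1 kb limit. Its fold, the peak caller's enrichment of signal over background as the authors deposited it, was 2.0. Mir196a-1 in Hoxb and Mir196a-2 in Hoxc had their nearest summits at 165 kb and 51.9 kb. None of the other cluster microRNAs, Mir10a in Hoxb, Mir615 in Hoxc and Mir10b in Hoxd, had a summit within 1 kb. The share for all miRNA genes was 6.27%, and 29.5% for those on chromosome 6.

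Of the 39 Hox genes, 22 had at least 1 listed promoter, a stretch from 250 bases before to 50 bases after a transcription start, for 24 promoters in all. None of the 10 Hoxa promoters overlapped a peak, against 27.1% of listed promoters of protein-coding genes on chromosome 6. Only 1 of the 24 Hox promoters overlapped a peak (4.17%), against 12.1% of 21263 listed promoters of protein-coding genes. It belongs to a second, internal start of Hoxd11, a gene of limb and kidney development, at chr2:74682073-74682372 (plus strand, GRCm38.p6). Capitals mark the 27 bases covered by the peak.
Hoxd11 internal start: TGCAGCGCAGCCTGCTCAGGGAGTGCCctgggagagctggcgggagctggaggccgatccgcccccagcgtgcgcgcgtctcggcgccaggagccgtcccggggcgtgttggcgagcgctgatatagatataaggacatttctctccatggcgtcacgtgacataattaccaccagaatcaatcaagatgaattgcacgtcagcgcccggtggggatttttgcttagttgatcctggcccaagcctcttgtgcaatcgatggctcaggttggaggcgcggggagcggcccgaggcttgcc
The summit of that peak lay 343 bp before the start and had a fold of 2.45. The 3 promoters below had no overlapping peak, and capitals mark each CG in them. That of the internal start of Hoxa10 (chr6:52234890-52235189, minus strand) had its nearest summit 264 bp after the start, with a fold of 2.27. The Hoxa13 promoter (chr6:52260831-52261130, minus strand) had its nearest summit 474 bp before the start, with a fold of 1.95. The Hoxb4 promoter (chr11:96318017-96318316, plus strand) is shown as one from the cluster without summits, and its nearest summit was 218 kb away.
Hoxa10 internal start: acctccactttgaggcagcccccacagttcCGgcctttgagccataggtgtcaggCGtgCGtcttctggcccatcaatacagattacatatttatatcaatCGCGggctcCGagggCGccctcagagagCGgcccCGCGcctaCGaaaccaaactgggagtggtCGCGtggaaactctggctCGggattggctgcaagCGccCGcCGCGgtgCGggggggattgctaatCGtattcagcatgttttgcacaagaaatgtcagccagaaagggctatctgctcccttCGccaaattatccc
Hoxa13: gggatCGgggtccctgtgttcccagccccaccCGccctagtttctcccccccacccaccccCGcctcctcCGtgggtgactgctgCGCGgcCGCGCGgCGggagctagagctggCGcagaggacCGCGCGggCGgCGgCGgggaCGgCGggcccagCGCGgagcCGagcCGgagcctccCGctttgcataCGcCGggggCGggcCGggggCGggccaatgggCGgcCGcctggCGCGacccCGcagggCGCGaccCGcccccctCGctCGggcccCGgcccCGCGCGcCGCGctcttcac
Hoxb4: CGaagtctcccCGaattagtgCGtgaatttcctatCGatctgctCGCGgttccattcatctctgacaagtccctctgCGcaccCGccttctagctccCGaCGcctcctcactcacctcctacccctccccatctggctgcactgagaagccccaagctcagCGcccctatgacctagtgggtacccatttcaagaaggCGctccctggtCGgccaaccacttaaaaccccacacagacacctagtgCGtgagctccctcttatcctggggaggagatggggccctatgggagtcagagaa
The dinucleotide CG occurs 21 times in the Hoxa10 sequence, 45 times in that of Hoxa13 and 14 times in that of Hoxb4. The median was 17.5 over 10 Hoxa promoters, 13 over 3 Hoxb promoters and 20 over 10 Hoxd promoters, and the 1 listed Hoxc promoter had 9. Over all listed promoters of protein-coding genes the median was 13, with 26 in the 2570 that overlapped a peak. The 24 Hox promoters together had a median of 14.5, so their CG content was nearer to that of all promoters than to that of the promoters with a peak. The letters CCAAT, searched on both strands, occur in 15 of 24 Hox promoters (62.5%) and in 38.2% of all, and TATAAA, likewise on both strands, in 4 of 24 (16.7%) and in 12.6% of all.

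Hoxa2, which patterns the second pharyngeal arch, had no summit in the gene or within 1 kb, the nearest being 3.75 kb away. Hoxa3, a gene of thymus and parathyroid formation, is annotated over 44.0 kb and encloses Hoxa4, Hoxa5 and Hoxa6. It counted 5 interior summits with a highest fold of 2.41, but 3 of these 5 are the summits assigned below to Hoxa4 and Hoxa6. The remaining pair had folds of 1.86 and 1.82, and the value of 1.82 was the lowest of the cluster. At Hoxa4, which takes part in axial patterning, a summit of fold 2.41, in a peak from 52191133 to 52191515, lay 431 bp inside the higher-coordinate end and another of fold 2.09 lay 454 bp outside the lower-coordinate end. Hoxa4 was the only Hox gene with summits near both boundaries, and the only one with a boundary fold at or above the list median of 2.09.

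Hoxa5, a gene of lung and airway development, had its nearest summit at 5.06 kb. Hoxa6 was counted as occupied through a summit of fold 1.91 at 977 bp before its start, close to the 1 kb limit. Hoxa7, a trunk patterning gene, held 1 summit of fold 2.22 at 1448 bp inside the gene from its start, and Hoxa9, which acts in blood progenitors, held 1 of fold 2.13 at 1524 bp from its start. Hoxa7 and Hoxa9 therefore stand outside the 1 kb limit but within 2 kb, and Hoxa6 just inside 1 kb. With a 2 kb limit 6 of 11 Hoxa genes were occupied, against 52.2% of protein-coding genes on chromosome 6.

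Hoxa10, which acts in uterine and limb development, held 3 summits with folds of 1.86, 2.36 and 2.27. They lie more than 2 kb from its annotated boundaries, and the last is the one near the internal start shown above. Hoxa11, a limb and uterine gene, had none, and its nearest summit was 7.07 kb away, the farthest of the Hoxa genes. That summit, of fold 2.04, stands between Hoxa11 and Hoxa13, and the one beside Mir196b is the other that lies outside every Hox gene. Hoxa13, which acts in the digits and the hindgut and lies at 52258853 to 52260880 of chromosome 6 (mm10), had a summit of fold 1.95 just beyond the end of the cluster.

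Counting a summit anywhere in the gene or within 1 kb, 8 of 11 Hoxa genes (72.7%) were marked, against 2 of 28 Hoxb, Hoxc and Hoxd genes (7.14%). The same measure marked 32.2% of all protein-coding genes, 68.9% of those on chromosome 6, and 25.1%, 27.2% and 22.6% of those on chromosomes 11, 15 and 2. By this count Hoxa was close to the genes of its own chromosome, and the other Hox genes were again below theirs. A longer gene has more room for a summit, and these shares were not matched for gene length. The median length was 3.71 kb over the Hoxa genes and 4.15 kb over the Hoxb, Hoxc and Hoxd genes. Hoxa and chromosome 6 cannot be told apart in this comparison, since all Hoxa genes lie there.

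**Figure D2:**
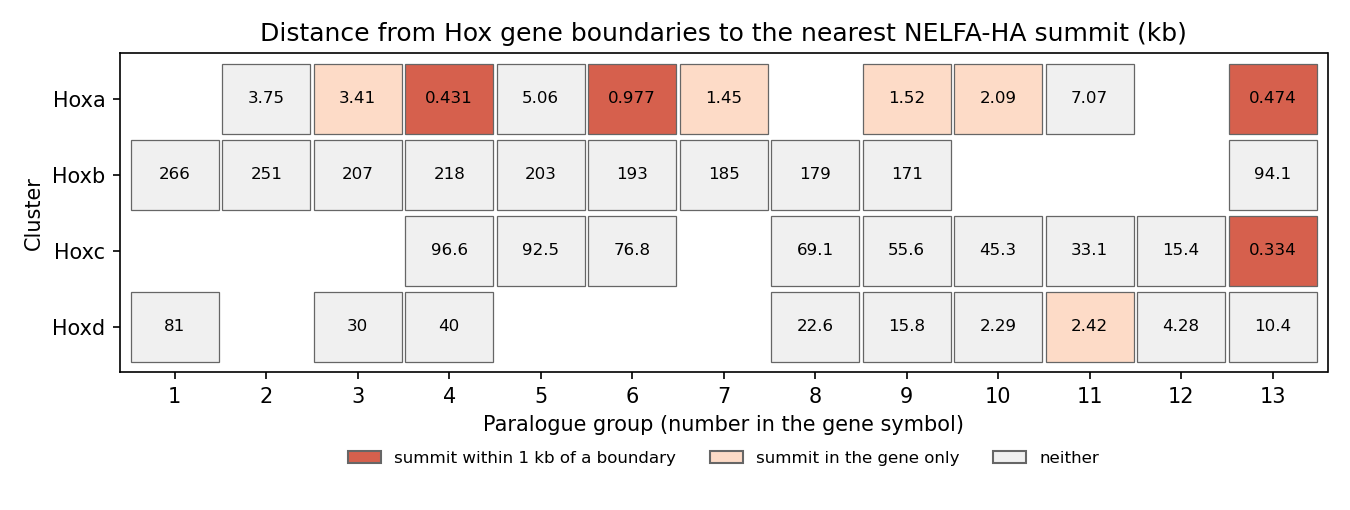
Distance in kb from the nearer boundary of each Hox gene shown to the closest summit, by cluster (rows) and paralogue number (columns), with colours for genes with a summit within 1 kb of a boundary, with a summit in the gene only, and with neither. Distances in Hoxa run from 0.431 to 7.07 kb, and those in Hoxb from 94.1 to 266 kb.

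The median distance from a gene boundary to the nearest summit was 1.52 kb over 11 Hoxa genes, against 198 kb over 10 Hoxb genes, 55.6 kb over 9 Hoxc genes and 15.8 kb over 9 Hoxd genes. The median was 1.66 kb for protein-coding genes on chromosome 6, 25.2 kb on chromosome 11, 26.8 kb on chromosome 15 and 33.1 kb on chromosome 2. Hoxa was close to its chromosome, Hoxb and Hoxc lay farther from summits than the typical gene of theirs, and Hoxd lay nearer. Within each of Hoxb, Hoxc and Hoxd the distances of all genes are measured to the same 1 peak, which for Hoxb lies outside the cluster. The distances in such a cluster therefore reflect 1 peak and the spacing of the genes.

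No Hoxb gene, from Hoxb13 to Hoxb1, had a summit in or near it. The closest on the lower-coordinate side was 94.1 kb away with a fold of 3.95, beyond the neighbouring gene Ttll6, and the closest on the other side was 409 kb away. The stretch of 677 kb between these summits holds the whole cluster, with its 6 lncRNA and 2 miRNA genes. In Hoxc the single summit, of fold 1.95 and −log10 q 2.39 (q being the authors' adjusted p-value of the peak), lay 334 bp inside the lower-coordinate end of Hoxc13, a gene of hair and nail formation at chromosome 15 from 102921131 to 102928814. Hoxc12, Hoxc11, Hoxc10, Hoxc9, Hoxc8, Hoxc6, Hoxc5 and Hoxc4 had none, nor had Hotair, the noncoding gene between Hoxc12 and Hoxc11, whose nearest summit was 22.6 kb away.

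The single Hoxd peak, at chromosome 2 from 74681798 to 74682099, lay in the interior of Hoxd11 and was stronger than that of Hoxc, with a −log10 q of 6.2. It was 2.42 kb from the nearer boundary of Hoxd11 and 2.29 kb outside Hoxd10, a limb motor neuron gene whose annotation overlaps that of Hoxd11. Hoxd13, Hoxd12, Hoxd10, Hoxd9, Hoxd8, Hoxd4, Hoxd3 and Hoxd1 had none. Like Hoxa10, Hoxd11 had no summit within 1 kb of its boundaries but had one within 1 kb of its internal start. Taking listed transcription starts in place of boundaries, 3 of 9 Hoxa genes were marked (Hoxa6, Hoxa10 and Hoxa13), 0 of 3 Hoxb, 0 of 1 Hoxc and 1 of 9 Hoxd genes, against 18.6% of protein-coding genes with a listed start and 39.4% of those on chromosome 6.

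By paralogue number, summits in the gene or within 1 kb marked 3 of 12 genes of groups 1 to 4, 2 of 11 of groups 5 to 8 and 5 of 16 of groups 9 to 13. The same measure marked 32.2% of all protein-coding genes and 68.9% of those on chromosome 6. In Hoxa alone the counts were 3 of 4, 2 of 3 and 3 of 4, so marked genes were found along its whole length. In the other clusters the marked genes, Hoxc13 and Hoxd11, both belong to groups 9 to 13, which hold 5 of 9 Hoxc and 5 of 9 Hoxd genes. Group 13 was the only one in which genes of more than 1 cluster had a boundary summit, with Hoxa13 and Hoxc13 at the same fold of 1.95, and Hoxb13 and Hoxd13 without. A boundary fold of 1.95 also occurred at Ash1l, Cdx1 and Foxp1, so the equal value is not particular to this group.

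Relative to sequence length, Hoxa held 13.3 summits per 100 kb, against 0 in Hoxb, 0.864 in Hoxc and 1.03 in Hoxd. Chromosome 6 is itself densely covered, with 5.55 summits per 100 kb, the second highest of 21 chromosomes, against 1.23 on chromosome 11, 1.1 on chromosome 15 and 1.11 on chromosome 2. Divided by the density of its chromosome, Hoxa stood at 2.39, Hoxb at 0, Hoxc at 0.788 and Hoxd at 0.933. The 500 kb on each side of Hoxa had 6.3 summits per 100 kb, which gives a ratio of 2.11. At the densities of their chromosomes the clusters would hold 5.86 summits in Hoxa, 2.14 in Hoxb, 1.27 in Hoxc and 1.07 in Hoxd, so for the last 3 the observed 0, 1 and 1 differ from these values by few peaks.

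**Figure D3:**
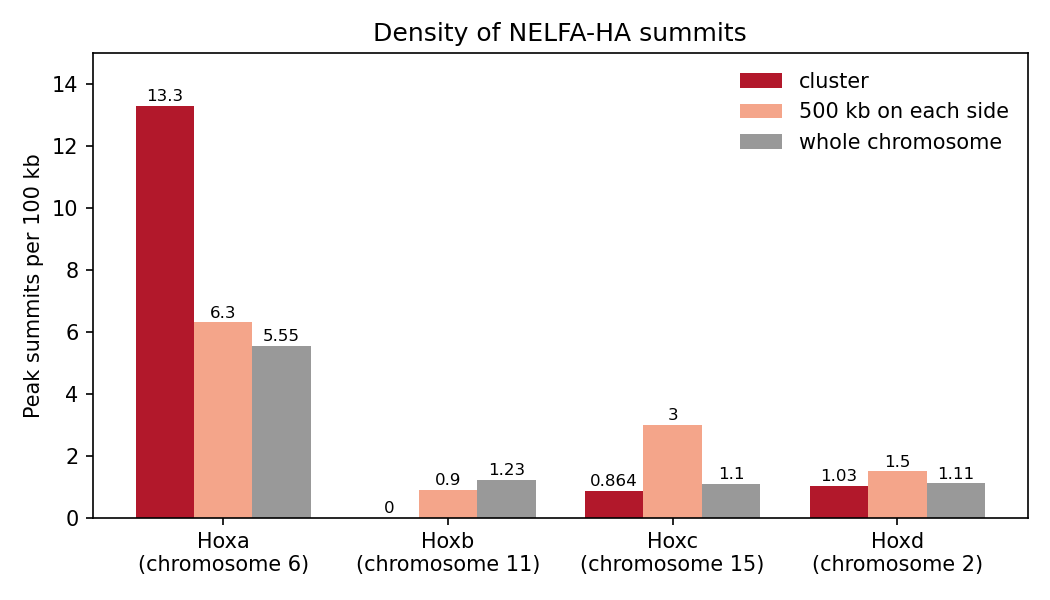
Summits per 100 kb (bars) in each Hox cluster, in the 500 kb on each side of it and on its whole chromosome. Hoxa reaches 13.3 where its chromosome has 5.55, and no other cluster exceeds 1.03.

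Windows of the length of Hoxa, laid end to end along chromosome 6, held a median of 4.0 summits. Of these 1416 windows, 123 (8.69%) held 14 or more. Among the 39 windows that overlap at least 5 protein-coding genes, a restriction chosen after the data were seen, the median was 9.0 and 12 (30.8%) held 14 or more. Hoxa was thus in the upper part of its chromosome but not beyond other gene-rich stretches of it. On chromosome 11, 265 of 701 windows of the length of Hoxb (37.8%) held 0 summits, and 29 of 155 gene-rich ones (18.7%) did. On chromosome 15, 674 of 898 windows (75.1%) held at most 1 summit, as Hoxc did, and on chromosome 2, 1446 of 1846 (78.3%) did, as Hoxd. Among the gene-rich windows, the median was 1.0 on chromosome 15, and 35 of 47 (74.5%) held at least 1 summit. On chromosome 2 the gene-rich median was 0.0, and 49 of 100 (49.0%) held at least 1.

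**Figure D4:**
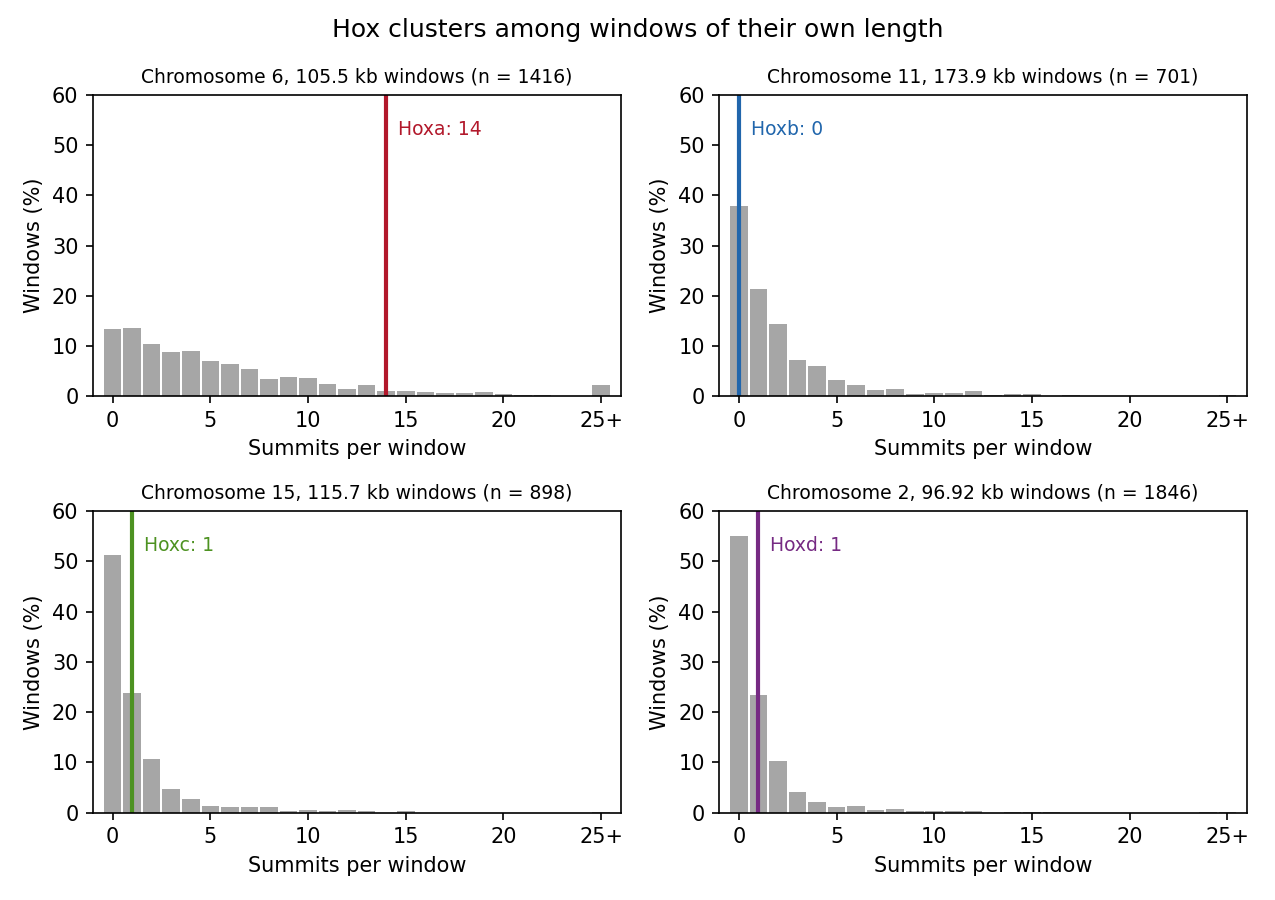
Share of windows (grey bars, %) by the number of summits in them, for windows of each cluster's own length laid along its chromosome, with 25 and above joined. Coloured lines mark the clusters, at 14 for Hoxa, 0 for Hoxb, 1 for Hoxc and 1 for Hoxd.

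In fold and width the Hoxa peaks were near or slightly above the medians of chromosome 6. Their folds ran from 1.82 to 2.63 with a median of 2.07, against a median of 2.0 for chromosome 6 and 2.09 for the list, and their widths from 47 to 412 bp with a median of 136.5 bp, against 128 bp for the chromosome. Together they covered 2.33% of the cluster. With a −log10 q of at least 4, 5 of the 14 (35.7%) were left, against 24.6% of all peaks on chromosome 6 and 40.8% of the list. The density in Hoxa at this limit was 4.74 per 100 kb, against 1.36 for chromosome 6, a ratio of 3.48. Spacing between neighbouring Hoxa summits ran from 397 bp to 18.4 kb, with a median of 4.47 kb. Inside at least 1 Hox gene lay 12 of the 14, and Hox genes cover 69.8% of the span, against 43.2% in Hoxb, 55.1% in Hoxc and 67.9% in Hoxd.

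Noncoding genes were counted in the same way. In Hoxa 5 of 11 lncRNA genes had a summit within 1 kb of a boundary, against 0 of 14 in Hoxb, Hoxc and Hoxd, with 7.85% over all lncRNA genes and 24.3% on chromosome 6. The 5 were Hotairm1, Hotairm2, Gm15050, LOC115490409 and Gm52902, and Hoxaas2, Hoxaas3, Mira and Hoxa11os were among those without. Several of them overlap coding Hox genes or one another, so they can share a peak.

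Peaks continued beyond Hoxa. The 60 kb on either side held 7 summits, of which 5 had folds from 1.86 to 2.0, at or below the median of 2.07 in the cluster. The strongest of the 7 lay 44.0 kb beyond Hoxa13 with a fold of 3.45 and a −log10 q of 16.7, and another lay 57.5 kb from the other end of the cluster with a fold of 2.95 and a −log10 q of 11. These 2 folds exceed the highest fold in the cluster, 2.63. Of the nearest protein-coding neighbours, Evx1, an even-skipped homeobox gene, had a boundary summit of fold 1.86 at 582 bp, and Skap2, an adaptor protein gene, had one of fold 2.22 at 44 bp and 12 summits in its interior. The neighbours of the other clusters, Ttll6 and Skap1 beside Hoxb, Calcoco1 and Smug1 beside Hoxc, and Evx2 and Mtx2 beside Hoxd, had none within 1 kb of a boundary. The 500 kb flanks had 6.3 summits per 100 kb around Hoxa, 0.9 around Hoxb, 3.0 around Hoxc and 1.5 around Hoxd.

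Fox and Sox genes, developmental transcription factors of other families, were counted in the same way as a comparison. Of the 39 Hox genes 4 had a boundary summit (10.3%, Wilson interval 4.06 to 23.6%), and of 63 Fox and Sox genes 13 had one (20.6%, 12.5 to 32.2%). Away from chromosomes 6 and 8, the 2 most densely covered, a split of the lists chosen after the data were seen, the counts were 1 of 28 Hox genes (3.57%) and 5 of 53 Fox and Sox genes (9.43%), against 15.4% of protein-coding genes there. On chromosomes 6 and 8 they were 3 of 11 Hox genes and 8 of 10 Fox and Sox genes, against 50.3% of protein-coding genes. The highest boundary folds were 2.9 at Foxj3, 2.41 at Sox2, 2.31 at Sox1 and 2.18 at Foxi3, while Foxa1, Foxa2 and Foxa3 had no boundary summit.

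Genes whose products act on or with Hox genes were also counted. Here and in the next paragraph a marked gene is one with a summit within 1 kb of a boundary. Polycomb genes, whose products repress the clusters, had a boundary summit in 10 of 29 cases (34.5%, 19.9 to 52.7%), against 18.8% of all protein-coding genes. The highest folds were at Rybp (4.67), the methyltransferase gene Ezh2 (3.77), Cbx7 (3.72) and Pcgf1 (3.4). Rybp, Ezh2 and Pcgf1 lie on chromosome 6, and without chromosomes 6 and 8 the count was 6 of 24 (25%), against 15.4% of protein-coding genes. Aebp2, with 4 interior summits, and Cbx2 had no boundary summit. Trithorax and COMPASS genes, which keep Hox genes active, were marked in 5 of 14 cases (35.7%, 16.3 to 61.2%), and this interval includes the 18.8% of all protein-coding genes. Without chromosomes 6 and 8 the Trithorax and COMPASS count was 5 of 13 (38.5%), against 15.4% of protein-coding genes. The highest of their folds were 4.67 at Kmt2a, a methyltransferase gene and Hox activator, 2.36 at Wdr5, 2.22 at Kmt2b and 1.95 at Ash1l, and Ash2l, Cxxc1 and Dpy30 had no boundary summit.

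Among the DNA-binding partners of Hox proteins, 1 of 9 was marked (11.1%, 1.99 to 43.5%), Pknox1 with a fold of 1.82, and Meis1, Meis2 and Meis3 were not. Retinoic acid receptor genes, whose products switch on Hox genes in differentiating cells, were marked in 1 of 6 cases (16.7%, 3.01 to 56.4%), Rxrb with 2.68, and Rara, Rarb and Rarg were not. ParaHox and linked homeobox genes, the nearest relatives of the Hox genes, were marked in 2 of 15 cases (13.3%, 3.74 to 37.9%), Cdx1 with 1.95 and Evx1 with 1.86, and Cdx2, Cdx4 and En1 were not. All 3 of these shares lie below the 18.8% of all protein-coding genes, and all 3 intervals include it. With a summit anywhere in the gene or within 1 kb, the counts were 3 of 9 partners (33.3%), 3 of 6 receptors (50%) and 3 of 15 ParaHox and linked genes (20%). That measure gave 32.2% of all protein-coding genes. The median of the highest boundary fold was 1.95 over the 4 marked Hox genes, 2.93 over the marked Polycomb genes and 2.22 over all 4121 marked protein-coding genes.

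**Figure D5:**
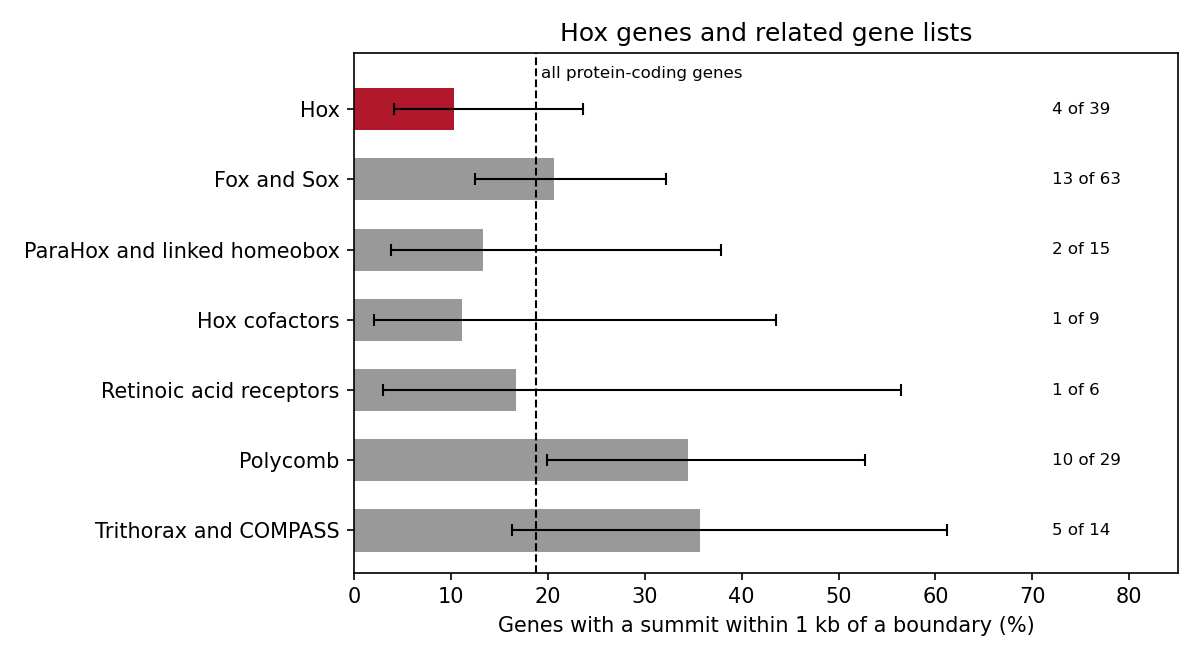
Share of genes with a summit within 1 kb of a boundary (bars, %) for Hox genes and related lists, with 95% Wilson intervals and the counts at the right. The dashed line is the share of all protein-coding genes, 18.8%, and the Hox bar stands at 10.3%.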

How the data were processed

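The 7 ChIP-seq libraries come with 1 deposited peak list. Per the submitters' processing notes, Trim Galore 0.4.2, Bowtie2 2.2.9, SAMtools 1.4, MACS2 without a version and the mm10 build were used. Which libraries entered the peak call and how they were combined, the settings of the peak call and the treatment of reads with several alignments are not stated in the labels or notes used here. The deposited fold enrichment is a linear ratio, the deposited q-values are on a −log10 scale, and the deposited score is the −log10 q scaled up and cut to whole numbers (not used here). The lowest −log10 q was 1.31.

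Of 59485 peaks, 58625 lay on chromosomes 1 to 19, X and Y. Summits were read from the deposited offset and set against gene starts and ends of the RefSeq GRCm38.p6 table, the assembly that mm10 names. Strand and transcription starts came from a RefSeq promoter table of the same build, which held 22 of the 39 Hox genes. Chromosome densities use the span from the first to the last gene or summit. No test was made, since 1 list without replicates gives no error between libraries. The members and gene lists were chosen with earlier results of these data known. For related lists the text names up to 4 members with the highest boundary fold and up to 3 without one in alphabetical order. For clusters it gives the summits, the Hox genes and the nearest coding neighbours. Of the genes that this rule names, 2 are not reported here by name and enter the counts only. The counting was tested on simulated data. Wilson intervals were computed at the 95% level and the read depth is unknown. The 20 RNA and 8 ATAC libraries of the series were not analysed here. Python 3.11.15, numpy 2.4.6, pandas 2.3.3, statsmodels 0.14.6 and matplotlib 3.10.9 were used.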

Additional observations from a re-analysis of the deposited data

How the results depend on the processing

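No paired analysis was possible because the list has no values per library. With a −log10 q of at least 4, and likewise with folds at or above the list median, 1 Hox gene had a boundary summit, 1 in Hoxa and 0 in the other clusters, against 9.81% and 12.4% of protein-coding genes. For the 11 Hoxa genes the matching shares on chromosome 6 were 22.5% and 30.1%. A 2 kb limit gave 7 Hox genes, 6 of them in Hoxa, against 21.8% of all protein-coding genes and 52.2% on chromosome 6. A 500 bp limit gave 3 Hox genes, 2 of them in Hoxa, against 16.1% and 34.2%. A summit anywhere in the gene gave 10 Hox genes, 8 in Hoxa and 2 elsewhere, against 32.2%. Without chromosomes 6 and 8 the background was 15.4%. The density per 100 kb in Hoxa was 6.63 at or above the median fold and 4.74 at the stricter q, and in Hoxc 0 in both. With 50 kb added on each side it was 0.464 in Hoxc and 0.508 in Hoxd. Against the 500 kb flanks the Hoxc ratio was 0.288. Hoxa had the highest density of the 4 clusters under every setting run for density, 10 kb added and interval overlap included. Listed starts gave 4 of the 22 Hox genes with a listed start, 3 of them in Hoxa, against 18.6% of protein-coding genes with one. The main count was 4 of 39, against 18.8%, so the Hox share was below the background with boundaries but close to it with listed starts. Hoxa10 and Hoxd11 took the place of Hoxa4 and Hoxc13, which have no listed start. Interval overlap gave the same Hox counts as summits, against 19.2% of protein-coding genes. Of the 4 Hox genes with a boundary summit, 3 had folds below the list median, and the unknown depth limits what could be detected in Hoxb, Hoxc and Hoxd.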
